A study of Mus musculus with 3 samples.

Results

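The genes described here are 8 transcription factors that mark or pattern the segments of the forming nephron: Lhx1, Pax8, Pou3f3, Hnf4a, Irx3, Sox9, Tfap2b and Osr2. They were chosen by name, and all 8 are listed in each of the 3 count tables, among 22939 symbols in Drop-seq, 27933 in 10x Chromium and 23420 in Fluidigm C1. The 3 samples were wild-type mouse kidneys of stage E14.5, taken from mice of mixed strain (mostly CD-1 and 129), with no treatment, deletion or transgene named. Each platform gave 1 library, so platform and library cannot be told apart, and the labels do not say whether the libraries came from separate animals. Drop-seq and 10x catch single cells in droplets and count molecules by unique molecular identifiers (UMIs), while C1 catches them in chip chambers and its table holds read counts with no molecular identifier stated.

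Nephrons arise from the cap mesenchyme, a pool of progenitors around the tips of the branching ureteric epithelium. Progenitors condense into the renal vesicle, an epithelial ball that is soon divided along an axis into cells that will form podocytes, the proximal tubule, and the loop and distal tubule, which joins the ureteric epithelium. Lhx1 and Pax8 act early in the new epithelium, Hnf4a is a nuclear receptor of proximal tubule differentiation, Pou3f3 and Irx3 are known from the loop and intermediate tubule, Tfap2b from the distal nephron, Sox9 from ureteric tips and early nephron epithelium, and Osr2 is an odd-skipped zinc finger factor.

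The promoters of Tfap2b, Pou3f3 and Hnf4a are shown because Tfap2b and Pou3f3 were high in the same cells below, and Hnf4a was high in the cells at the other end of the tubule. Each is the 250 bases before a RefSeq start site (GRCm38.p6), written 5′ to 3′ on the gene's strand, the plus strand in all 3. Capitals mark matches to CCAAT or to the HNF1 half-site GTTAAT, on either strand, so that a match on the other strand reads ATTGG or ATTAAC.
Tfap2b, chr1:19211804-19212053: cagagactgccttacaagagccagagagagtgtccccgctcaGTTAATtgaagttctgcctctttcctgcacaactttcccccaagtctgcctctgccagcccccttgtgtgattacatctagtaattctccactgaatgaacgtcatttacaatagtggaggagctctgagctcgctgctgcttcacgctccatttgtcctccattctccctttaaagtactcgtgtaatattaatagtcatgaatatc
Pou3f3, chr1:42695518-42695767: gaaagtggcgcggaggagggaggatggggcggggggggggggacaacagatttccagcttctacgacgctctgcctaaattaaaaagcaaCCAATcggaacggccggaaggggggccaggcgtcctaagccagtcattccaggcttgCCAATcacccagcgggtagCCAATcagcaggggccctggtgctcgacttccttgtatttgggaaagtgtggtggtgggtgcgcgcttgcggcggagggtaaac
Hnf4a, the second start site, chr2:163546905-163547154: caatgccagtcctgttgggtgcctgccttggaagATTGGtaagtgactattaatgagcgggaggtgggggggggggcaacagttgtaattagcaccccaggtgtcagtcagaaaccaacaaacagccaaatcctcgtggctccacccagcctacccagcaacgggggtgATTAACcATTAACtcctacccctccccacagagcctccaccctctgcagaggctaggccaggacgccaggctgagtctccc
Tfap2b held 1 HNF1 half-site at -208 from the start. Its window lies inside the span that GENCODE gives the gene, which begins at 19208914. The bases before that position were not searched. Pou3f3 held 3 CCAAT boxes, at -160, -103 and -84. The second start site of Hnf4a held 2 HNF1 half-sites on the other strand, at -81 and -74, and a CCAAT box at -216. The window of its first start site, not shown, held a CCAAT box at -192 and no HNF1 half-site. Among 32841 RefSeq promoters of the same length, 6.43% held the half-site and 33.9% held CCAAT. Of the 8 genes, 6 had a promoter in the table (Lhx1, Pax8, Pou3f3, Hnf4a, Irx3 and Tfap2b). None of their windows held TATAAA (12.4% of all promoters), the AP-2 motif GCCNNNGGC (13.7%), the HNF4 motif CAAAGTCCA (0.384%), the RBPJ motif GTGGGAA (5.41%), the TCF/LEF motif CTTTGAT (3.21%) or the POU octamer ATGCAAAT (1.6%). A match describes letters only.

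After filters, 1964 Drop-seq, 2130 10x and 883 C1 cells were left, with 17751487 UMIs, 17465306 UMIs and 171283962 reads. Medians were 7060, 7369 and 166712 per cell. No cell barcode occurred in more than 1 library, though C1 cells are named by column and row and could not match. Cells were clustered in each library alone, with the 8 genes kept out of the genes used for clustering and naming, and clusters were named from marker lists. In the order Drop-seq, 10x and C1, cap mesenchyme had 600, 200 and 183 cells, renal vesicle 340, 170 and 103, proximal cells 152, 143 and 69, and ureteric cells 175, 153 and 66. Distal cells formed a class in Drop-seq (59) and 10x (50) but not in C1. There the ureteric cluster carried the summed distal markers at 1666 CPM (counts scaled by the total of the class), against 3224 CPM for its ureteric markers. Ureteric cells of Drop-seq and 10x carried distal markers too, at 800 and 1192 CPM, against 2568 and 3670 CPM for ureteric markers. The part of the distal signal in the C1 ureteric values was not tested. Podocyte-like cells were 61 in Drop-seq and 17 in 10x. In Drop-seq their 10 podocyte markers summed to 256 CPM and the renal vesicle markers to 1258 CPM, against 2803 and 345 CPM in 10x, so the Drop-seq class carries its name on low marker levels. The 10x podocyte-like cells also held endothelial markers at 1908 CPM, though 8 of the 11 listed had no count in them. Erythroid markers, an outside signal, summed to between 796 and 4893 CPM in these 6 Drop-seq classes and between 34.7 and 3301 CPM in the same 10x classes.

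Levels below are CPM of all counts in a class, with exact 95% Poisson intervals, and shares are of cells with at least 1 count. Intervals cover counting error only, and C1 reads are not independent molecules. Endothelium, low in all of these genes but Irx3 in the droplet libraries, stands beside the shares as a class outside the nephron lineage. In C1 it was above cap mesenchyme for each of the 8 genes (Sox9 at 22.5 against 9.73 CPM, Osr2 at 31.3 against 4.21), so its C1 shares are given for comparison and not as a floor. Its cells had median counts of 6866.5, 8915 and 209362 in Drop-seq, 10x and C1, against 9118.5, 10047 and 198849 in renal vesicle, 7409.5, 8083 and 262550 in proximal cells and 7294 and 5914.5 in distal cells. Levels are compared between classes of 1 library and not between genes.

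Lhx1 (chr11:84518284-84525535, minus strand, GRCm38/mm10), a LIM homeobox gene needed for renal vesicle patterning, was highest in renal vesicle cells in all 3 libraries. In Drop-seq it was at 514 CPM in renal vesicle (491 to 537), 287 in podocyte-like, 213 in proximal, 137 in ureteric, 135 in distal and 32.5 in cap mesenchyme cells. In 10x the values in the same order were 220 (198 to 244), 64.7, 21.3, 44.4, 44.1 and 1.74 CPM, the last from 3 UMIs. In C1 they were 79.1 in renal vesicle, 23.3 in proximal, 28.6 in ureteric and 7.85 in cap mesenchyme cells. The renal vesicle interval overlapped no other class in any library, while ureteric and distal cells overlapped in Drop-seq. Lhx1 was found in 80.3%, 72.4% and 63.1% of renal vesicle cells of Drop-seq, 10x and C1, against 6.73%, 0.543% and 21.8% of endothelial cells. With every cell thinned to 4000 UMIs, or 50000 reads in C1, the renal vesicle shares were 69.2%, 50.0% and 55.0%.

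Pax8 (chr2:24420560-24475599, minus strand), a paired-box gene of the whole renal epithelial lineage, was found in every class of the ureteric and nephron lineages. In Drop-seq it was at 175 CPM (141 to 215) in podocyte-like, 152 (139 to 164) in renal vesicle, 95.7 in distal, 69.7 in proximal, 54.6 in ureteric and 43.1 in cap mesenchyme cells, and the podocyte-like and renal vesicle intervals overlapped. In 10x it was at 157 CPM in renal vesicle, 122 in proximal, 119 in podocyte-like, 110 in distal, 48.7 in ureteric and 20.9 in cap mesenchyme cells. In C1 it was at 205 CPM in renal vesicle, 67.8 in ureteric, 64.5 in proximal and 32.1 in cap mesenchyme cells. Thus cap mesenchyme was the lowest of the lineage classes in each library, and in the droplet libraries it was above endothelium, which was at 7.01 and 1.94 CPM. In C1 endothelium was at 35.9 CPM, and the C1 cap mesenchyme level was no higher than that. Pax8 shares in renal vesicle cells were 67.4%, 57.6% and 88.3%, and 45.6%, 41.9% and 90.0% in thinned cells. The exons of Pax8 share 367 bases with the antisense gene Gm13415, and no source used here says whether the counting used strand.

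Hnf4a (chr2:163506808-163572910, plus strand) was high in proximal cells of all 3 libraries and lower in the other classes described. It was at 58.7 CPM (46.6 to 73.1) in Drop-seq, 172 (150 to 197) in 10x and 148 (143 to 154) in C1 proximal cells. The next class was renal vesicle, at 6.54, 37.5 and 13.7 CPM. Distal cells held 1 UMI in each droplet library, which is 1.77 CPM (0.0448 to 9.87) in Drop-seq and 3.15 CPM (0.0798 to 17.6) in 10x. Ureteric cells held 0 UMIs in Drop-seq, which allows up to 1.41 CPM, and were at 1.45 CPM in 10x and 0.513 CPM in C1. Hnf4a was found in 37.5%, 71.3% and 100% of proximal cells against 0%, 0.543% and 25.6% of endothelial cells. In thinned cells the proximal shares were 24.0%, 43.3% and 91.3%, and the C1 renal vesicle share of 11% was below the 15.1% of C1 endothelium.

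Osr2 (chr15:35296098-35303305, plus strand) was high in both renal vesicle and proximal cells. In Drop-seq it was at 93.4 CPM (84.0 to 104) in renal vesicle and 82.2 (67.7 to 98.9) in proximal cells, with overlapping intervals. In 10x the order was proximal, 485 CPM (447 to 525), then renal vesicle, 265 (241 to 290). In C1 it was renal vesicle, 167 CPM (161 to 172), then proximal, 146 (141 to 152). Distal cells were at 10.6 CPM in Drop-seq and held 0 UMIs in 10x, which allows up to 9.45 CPM, and ureteric cells were at 1.88, 1.45 and 6.82 CPM. Podocyte-like cells stood between, at 33.0 CPM in Drop-seq and 32.3 CPM in 10x, the latter from 3 UMIs. Shares in proximal cells were 41.4%, 67.1% and 75.4%, against 0.962%, 2.45% and 17.9% in endothelium, and 26.0%, 54.5% and 69.6% in thinned proximal cells. Within 10x proximal cells, 3 clusters differed, with Osr2 at 1229 CPM in 24 cells, 350 in 80 and 203 in 39, while Hnf4a was at 108, 155 and 276 CPM in the same clusters. The 10x renal vesicle level of Osr2, 265 CPM, lay between those of the 80 and the 39 cells. The proximal name of the 24 cells depends on a setting made after clusters had been seen. How far the 10x order rests on these 24 cells was not tested.

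**Figure D1:**
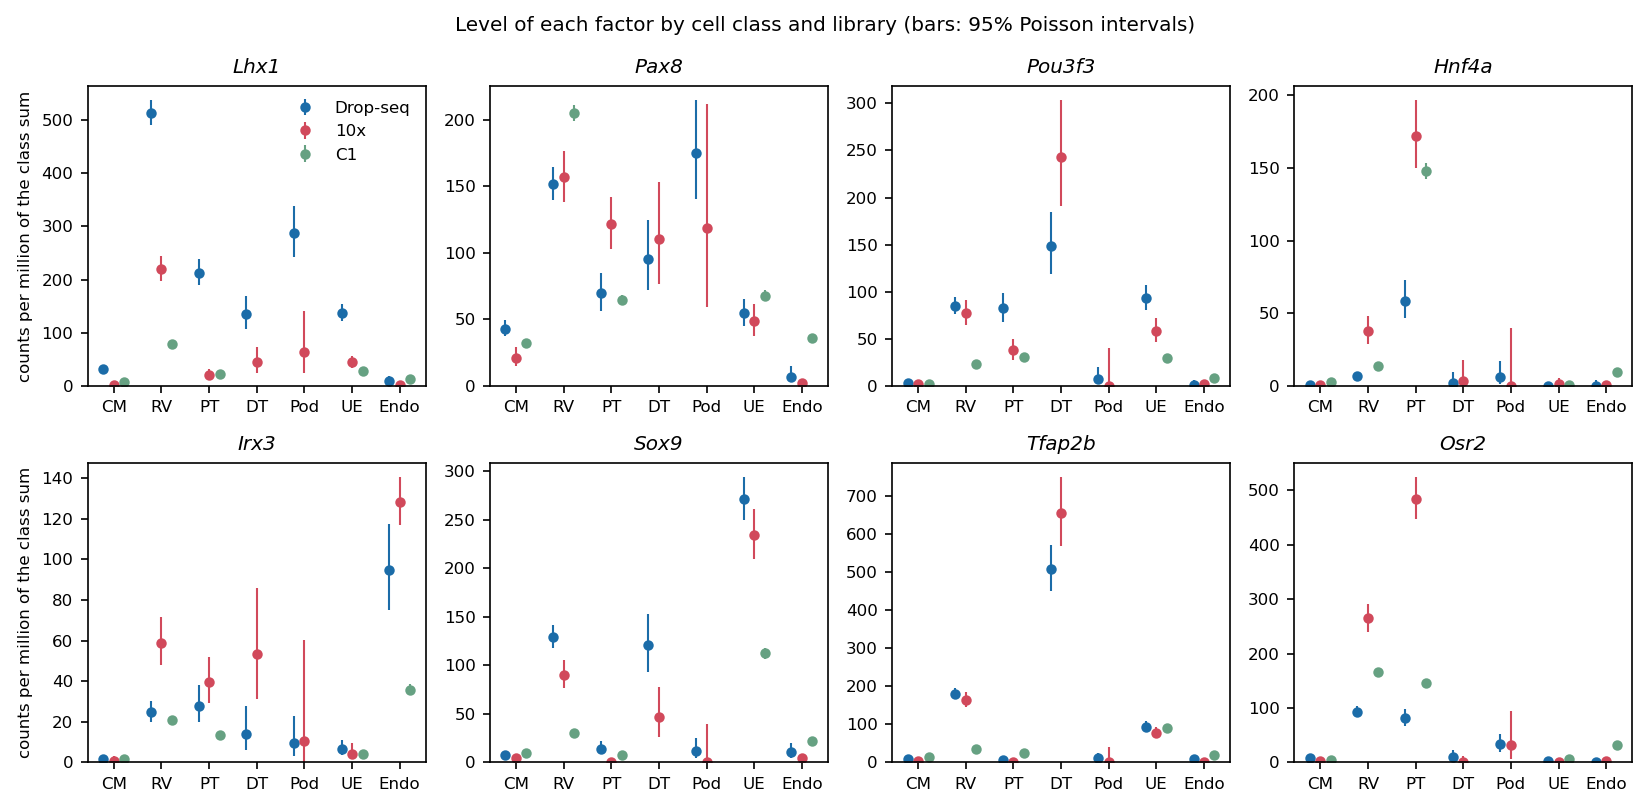
Level of each of the 8 genes in CPM (linear axis from 0) by cell class, with points for the libraries and bars for exact 95% Poisson intervals. CM is cap mesenchyme, RV renal vesicle, PT proximal, DT distal, Pod podocyte-like, UE ureteric and Endo endothelium; Tfap2b stands at 508 and 655 CPM in distal cells, and Hnf4a is highest in proximal cells in all 3 libraries.

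Tfap2b (chr1:19208914-19238576, plus strand), an AP-2 family gene, was high in distal cells and low in proximal cells. It was at 508 CPM (451 to 571) in Drop-seq distal cells and 655 (569 to 751) in 10x distal cells. Proximal cells were at 6.61 CPM in Drop-seq, 1.58 (0.191 to 5.71, 2 UMIs) in 10x and 24.4 in C1. Renal vesicle cells came next to distal cells, at 181 and 163 CPM in the droplet libraries, and ureteric cells followed, at 94.1 and 77.8 CPM. In C1, with no distal class, ureteric cells were highest, at 89.6 CPM, then renal vesicle, at 34.6 CPM. Tfap2b was found in 86.4% and 90.0% of distal cells, and in 79.3% and 82.2% when thinned, against 6.73% and 1.09% of endothelial cells. In C1 it was found in 57.6% of ureteric, 21.4% of renal vesicle and 17.9% of endothelial cells, so that the C1 renal vesicle share was close to that of endothelium. C1 cells carry 1 of 2 name tags, HT and E14, which no source used here explains. C1 renal vesicle cells with them differed, with Tfap2b at 25.0 CPM in 86 HT cells and 97.4 CPM in 17 E14 cells and Irx3 at 23.5 and 2.37 CPM, while Osr2 was at 164 and 183 CPM. Lhx1 was at 79.8 and 74.4 CPM, but it was found in 61 of the 86 HT cells (70.9%) and 4 of the 17 E14 cells (23.5%), where 141 of its 220 reads came from 1 cell.

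Pou3f3 (chr1:42695768-42703176, plus strand), a POU-domain gene, was highest in distal cells, at 149 CPM (119 to 184) in Drop-seq and 243 (191 to 303) in 10x. In Drop-seq it was nearly level over ureteric (93.7 CPM), renal vesicle (85.1) and proximal cells (82.2), whose intervals overlapped from each to the next. In 10x these were at 58.2, 76.9 and 37.9 CPM, and in C1 at 29.6, 23.7 and 30.4 CPM. It was low in progenitors and in podocyte-like cells. Cap mesenchyme was at 2.86, 1.74 and 1.79 CPM, and podocyte-like cells were at 7.77 CPM in Drop-seq and 0 UMIs in 10x, which allows up to 32.3 CPM. Shares in distal cells were 69.5% and 74.0%, or 50.0% and 66.7% in thinned cells, against 0.962% and 1.63% unthinned in endothelium.

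Sox9 (chr11:112782224-112787760, plus strand), an HMG-box gene, was highest in ureteric cells in all 3 libraries, at 271 CPM (249 to 294), 234 (209 to 261) and 113 (107 to 118). Renal vesicle cells came next in the droplet libraries, at 129 and 90.0 CPM, then distal cells, at 120 and 47.3 CPM, and the renal vesicle and distal intervals overlapped in both. In C1 renal vesicle cells were at 30.5 CPM and proximal cells at 7.29 CPM. Proximal cells were at 13.9 CPM in Drop-seq and 0.790 CPM (0.0200 to 4.40, 1 UMI) in 10x, and cap mesenchyme at 7.36, 4.07 and 9.73 CPM. Sox9 was found in 66.3%, 58.8% and 78.8% of ureteric cells, and in 55.7%, 48.9% and 67.2% when thinned, against 5.77%, 4.62% and 24.4% of endothelial cells. Ureteric cells were not uniform. The smaller droplet clusters, of 16 and 28 cells, had Sox9 at 25.5 and 43.8 CPM against 334 and 263 CPM in the larger ones, of 159 and 125 cells. Lhx1 was at 30.1 CPM in the smaller Drop-seq cluster and 0 UMIs in the smaller 10x cluster, which allows up to 16.4 CPM, against 164 and 51.2 CPM in the larger ones.

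Irx3 (chr8:91798525-91802067, minus strand), an Iroquois homeobox gene, had its highest level in endothelium in each library. Endothelium was at 94.6 CPM (75.1 to 118), 128 (117 to 141) and 35.7 (33.1 to 38.4) in Drop-seq, 10x and C1. Within the 6 epithelial and progenitor classes it was at 24.9, 59.0 and 20.7 CPM in renal vesicle, 27.9, 39.5 and 13.6 in proximal, and 14.2 and 53.6 in distal cells. Ureteric cells were lower, at 6.59, 4.36 and 4.03 CPM, as was cap mesenchyme, at 1.84, 0.582 and 1.48 CPM. Renal vesicle shares were 20.6%, 35.3% and 30.1%, and 10.7%, 17.6% and 27.0% in thinned cells. Endothelium is here the highest class, and the cap mesenchyme share was 1.33%, 0.5% and 2.19%. Irx3 shares 124 exonic bases with the antisense gene Irx3os.

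**Figure D2:**
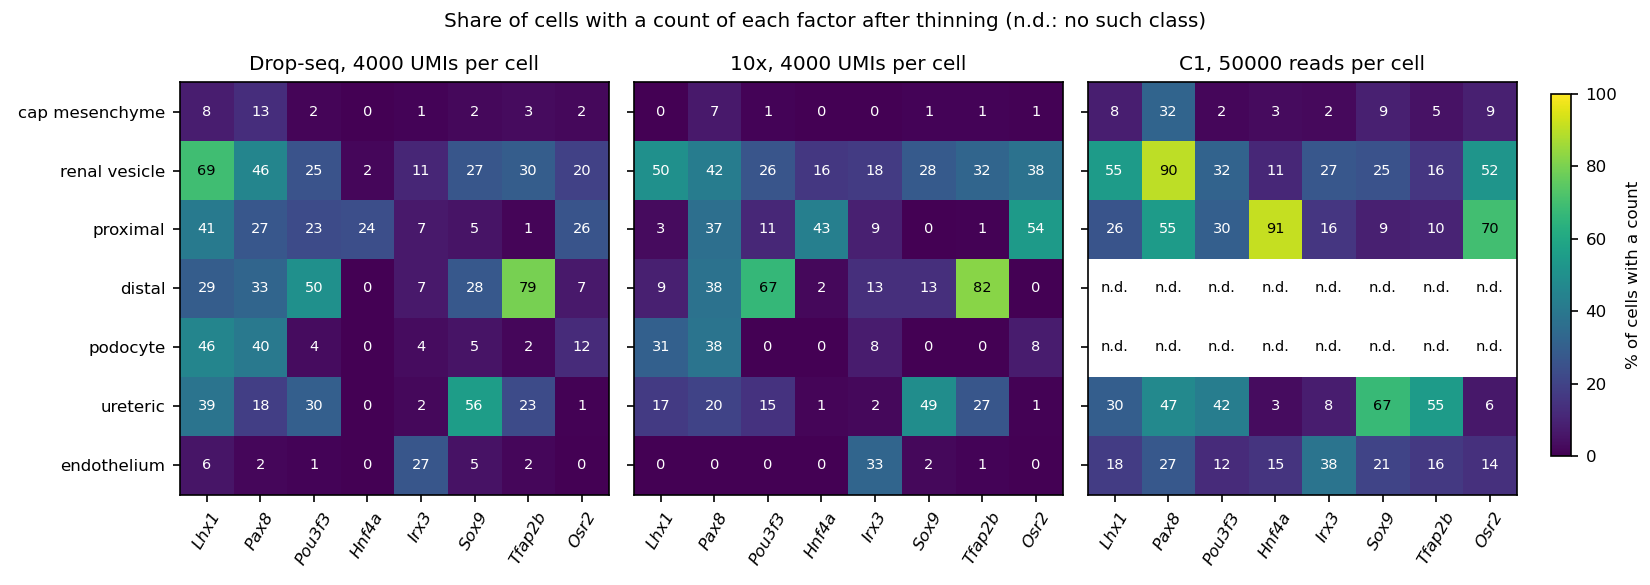
Percent of cells with a count of each gene, as colour and rounded number, by class (rows) in each library after thinning every cell to 4000 UMIs or 50000 reads; classes not formed in C1 are marked n.d. Tfap2b is found in 79.3% and 82.2% of thinned distal cells, and the C1 share in endothelium reaches 38.4% for Irx3.

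Which of these genes were higher once progenitors had become epithelium was tested by setting renal vesicle against cap mesenchyme. Of 8 genes, 5 rose: Irx3, Pou3f3, Lhx1, Sox9 and Osr2, all higher in 3 of 3 libraries. Of all 8207 genes tested, 0.792% were called higher (0.487% lower, 1.28% in either direction). The tested genes lack those used for clustering or naming, while the 8 were kept out of those steps. Shares of the 8 called, here and in the comparisons below, thus cannot be read against all genes. On the log2 scale, Irx3 rose by 4.03 (SE 0.38, edgeR adjusted p = 2.4e-06) and Pou3f3 by 4.55 (SE 0.68, edgeR adjusted p = 0.0029). Lhx1 rose by 4.20 (SE 0.78, edgeR adjusted p = 0.0199), with log2 ratios of 3.9, 6.94 and 3.31 in Drop-seq, 10x and C1. Sox9 rose by 3.20 (SE 0.62, edgeR adjusted p = 0.0223), with ratios of 4.05, 4.43 and 1.62. Osr2 rose by 4.81 (SE 1.03, edgeR adjusted p = 0.0406), with ratios of 3.43, 6.79 and 5.28. The other 3 were also above cap mesenchyme in each library without passing the test: Tfap2b had a log2 fold change of 3.83 (SE 0.88, edgeR adjusted p = 0.0602), Pax8 of 2.36 (SE 0.64, edgeR adjusted p = 0.127) and Hnf4a of 3.18 (SE 0.96, edgeR adjusted p = 0.171). Summed erythroid markers also differed between these classes, at 4893 CPM in cap mesenchyme against 1799 in renal vesicle in Drop-seq, 3301 against 764 in 10x, and 6.54 against 2064 in C1, and their part in the result was not tested. The p-values measure the spread among class sums of 3 libraries that differ in platform. Without Drop-seq, Irx3 was the 1 gene of all tested that passed (edgeR adjusted p = 0.0108). Without 10x Irx3, Pou3f3, Pax8 and Hnf4a passed, and without C1 all 8 but Pax8 did. With coarser clusters, at a resolution of 0.6, none of the 8 passed and 8 of 8 had an unadjusted p under 0.05.

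Genes of the fixed lists moved in the same comparison. Of 13 Notch genes, which act in the first division of the nephron epithelium, 4 rose and 0 fell: Dll1, Hes5, Lfng and Notch1. Hes5, a Notch target, rose by 6.54 (log2, SE 1.01, edgeR adjusted p = 0.00396), from 0.818, 1.16 and 0.909 CPM in cap mesenchyme to 85.1, 151 and 35.6 CPM in renal vesicle. Dll1, a Notch ligand, rose by 4.28 (SE 0.55, edgeR adjusted p = 0.00051). Of 10 tested paralogues out of 21 listed, Irx2 and Tfap2a rose and Osr1 fell, with Irx2 rising by 5.68 (SE 0.86, edgeR adjusted p = 0.00131). Of 22 tested other segment regulators out of 24 listed, 0 fell, and those that rose included Emx1, Emx2, Mecom and Sim1. Emx2 rose by 4.34 (SE 0.88, edgeR adjusted p = 0.0321) and Sim1 by 4.32 (SE 0.67, edgeR adjusted p = 0.00235). Without Drop-seq, Hes5, Dll1, Irx2, Emx2 and Sim1 kept their direction and none of these passed, with edgeR adjusted p from 0.0556 for Dll1 to 0.794 for Emx2, and without 10x Emx2 did not pass either (edgeR adjusted p = 0.2845). Emx1 passed in none of the fits that left out 1 library. The median log2 fold change was 3.93 over the 8 genes, 2.35 over the paralogues, 1.63 over the Notch genes, 1.38 over the other regulators and -0.02 over all genes tested. The tested genes lack the most variable genes outside the lists and the 8, which had served for clustering. Shares of list genes called therefore cannot be read against all genes either.

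The renal vesicle clusters of the droplet libraries differed in which of the 8 genes were high. In Drop-seq, a cluster of 131 cells had Tfap2b at 405 CPM, Sox9 at 277, Pou3f3 at 169 and Osr2 at 7.32 CPM. In a cluster of 137 cells Tfap2b (7.67 CPM), Sox9 (23.0) and Pou3f3 (13.3) were lower than in the first cluster, and Osr2 (212) was higher. Both had Lhx1 (678 and 513 CPM) and Pax8 (130 and 220 CPM), and a remaining cluster of 72 cells lay between, with Tfap2b at 124 and Osr2 at 42.1 CPM. In 10x, 84 cells had Tfap2b at 352, Sox9 at 145, Pou3f3 at 104, Osr2 at 12.0 and Hnf4a at 1.33 CPM. The other 86 had Osr2 at 469, Hnf4a at 66.8, Pou3f3 at 55.0, Sox9 at 45.3 and Tfap2b at 10.8 CPM. C1 did not show such a split: Osr2 was at 233, 117 and 120 CPM in its clusters of 43, 34 and 26 cells, and Tfap2b at 34.2, 15.8 and 56.8 CPM. Clusters are groups of cells in 1 library, so these levels are descriptions without a test.

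**Figure D3:**
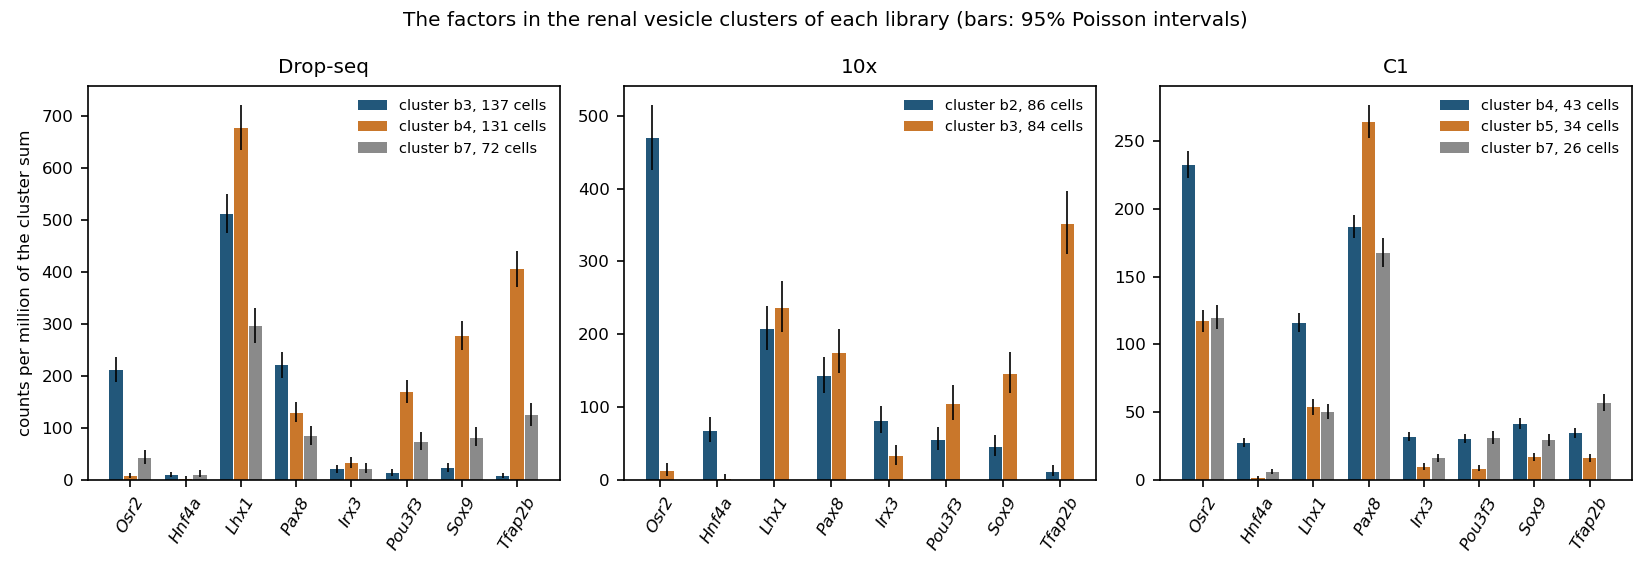
Level of the 8 genes in CPM (bars from 0, with exact 95% Poisson intervals) in each renal vesicle cluster of each library. In Drop-seq and 10x the clusters high in Tfap2b (405 and 352 CPM) are low in Osr2, and those high in Osr2 (212 and 469 CPM) are low in Tfap2b.

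Co-detection of pairs within single renal vesicle cells was counted beside the number that the product of the 2 shares gives. Tfap2b and Osr2 met in 14 of 340 Drop-seq cells, where 125 had Tfap2b, 107 had Osr2 and the product was 39.3. They met in 5 of 170 10x cells (69 and 73 cells, product 29.6) and in 5 of 103 C1 cells (22 and 59 cells, product 12.6). Cells with both were thus fewer than the product in each library, as they were after thinning, with 5, 2 and 2 cells against products of 19.5, 18.2 and 8.32. Hnf4a and Tfap2b met in 3, 1 and 4 cells against 7.72, 15.8 and 5.77. Sox9 and Osr2 met in 28, 20 and 9 cells against 43.4, 27.5 and 20.05, and Pou3f3 and Osr2 in 24, 32 and 19 cells against 43.1, 36.5 and 24.6.

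Other pairs met more often than the product. Sox9 and Tfap2b met in 88, 38 and 12 renal vesicle cells against 50.7, 26.0 and 7.48, and after thinning in 53, 27 and 8 against 26.9, 13.6 and 4. Pou3f3 and Tfap2b met in 89, 40 and 12 cells against 50.4, 34.5 and 9.18, and Pou3f3 and Sox9 in 98, 38 and 24 against 55.6, 32.0 and 14.6. On the proximal side, Hnf4a and Osr2 met in 15, 34 and 20 cells against 6.61, 16.7 and 15.5. In 10x, 87.2% of renal vesicle cells with Hnf4a also had Osr2, and 2.56% also had Tfap2b. Lhx1 and Pax8 met in 192, 81 and 61 cells against 184, 70.9 and 57.4. Of the 28 pairs, 7 were below the product in all 3 libraries and 13 above it, and in thinned cells 8 were below, 6 of them shared with the 7, and 8 above, 7 of them shared with the 13. Cells are not replicates, and no test was made.

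**Figure D4:**
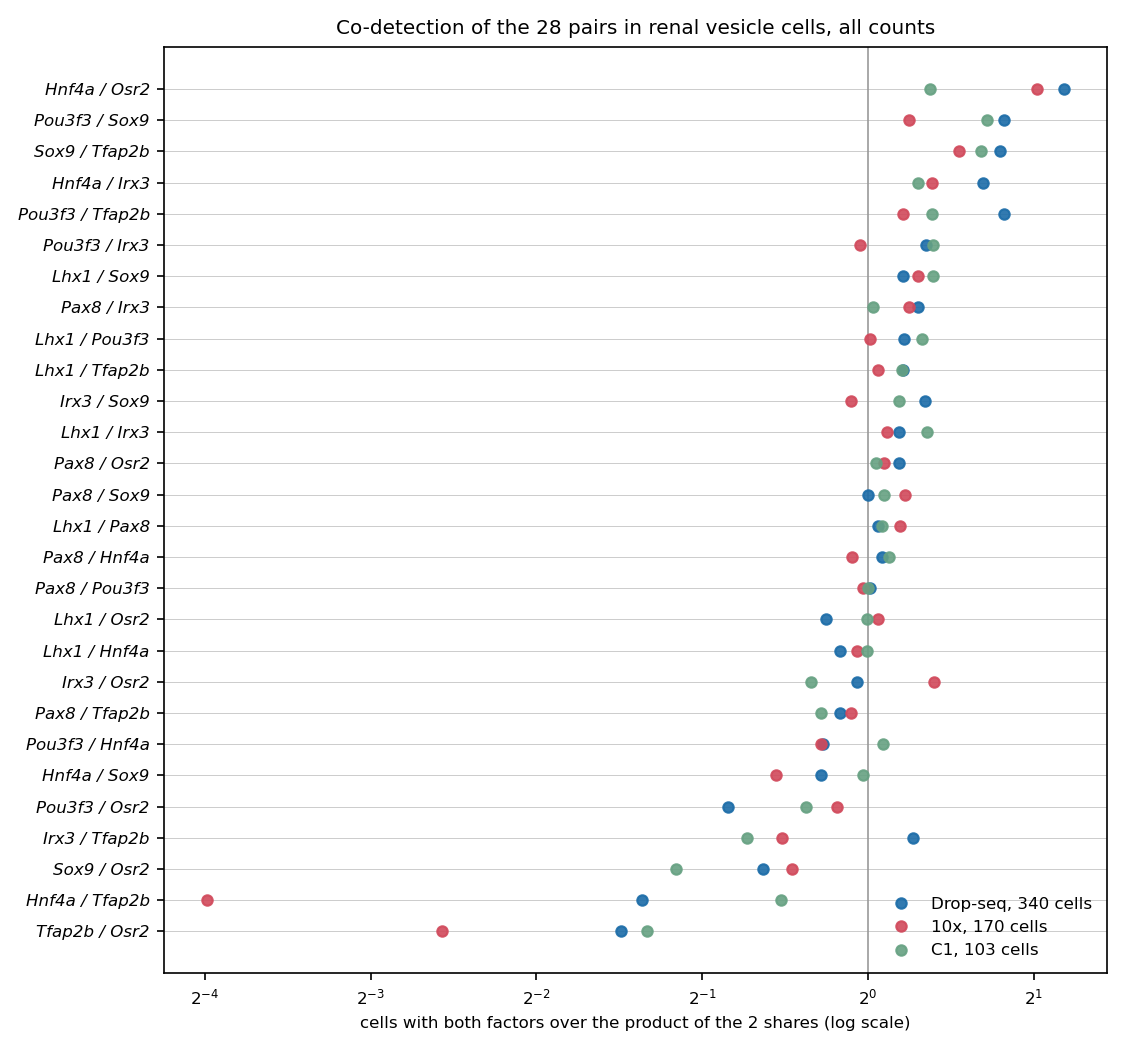
Renal vesicle cells with a count of both genes, divided by the number that the product of their shares gives (log axis), for the 28 pairs, with 1 point per library and a line at a ratio of 1. Tfap2b with Osr2 is below 1 in every library (14, 5 and 5 cells against 39.3, 29.6 and 12.6), and Sox9 with Tfap2b is above 1.

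The same counts were made in the other classes. In distal cells Pou3f3 and Tfap2b met in 37 of 59 Drop-seq cells (product 35.4) and 34 of 50 10x cells (product 33.3). In ureteric cells Sox9 and Tfap2b met in 62, 46 and 31 cells against 52.4, 38.8 and 29.9. After thinning they met in 28, 16 and 25 cells against 22.3, 17.6 and 23.5, so 10x fell below the product. With 10 or more reads in C1 they met in 12 cells against 14.1. In proximal cells Hnf4a and Osr2 met in 15 of 152 Drop-seq cells, under the product of 23.6, and in 70 of 143 10x cells, with a product of 68.5, while in C1 all 69 proximal cells had Hnf4a, so that no departure from the product could be seen. Outside renal vesicle, Pou3f3 and Tfap2b also met above the product in 10x ureteric cells, in 34 against 24.6, and Lhx1 and Pax8 in Drop-seq proximal cells, in 35 against 28.6. Of the 28 pairs, 15 were above the product and 13 below in 10x ureteric cells, and 17 above and 10 below in Drop-seq proximal cells. Over all nephron epithelium (renal vesicle, proximal, distal and podocyte-like cells), Tfap2b and Osr2 met in 21 of 612, 6 of 380 and 11 of 172 cells against 56.2, 52.5 and 21.3. In the 61 podocyte-like cells of Drop-seq, Lhx1 and Pax8 met in 28, with a product of 23.7. Most pairs did so there, with 24 of the 28 pairs above the product and 4 below. The part of depth per cell, which moves both genes of a pair, was not tested.

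Proximal and distal cells were compared for the difference between the tubule's ends, with distal cells in 2 libraries. Of the 8 genes, 2 were lower in proximal cells, Tfap2b and Sox9, and 0 were higher, where 1.99% of all genes tested were called lower, 3.7% higher and 5.69% in either direction. Tfap2b fell by 5.34 on the log2 scale (SE 0.98, edgeR adjusted p = 0.00825), and Sox9 fell by 3.06 (SE 0.80, edgeR adjusted p = 0.0403), both lower in 2 of 2 libraries. Hnf4a, at 58.7 and 172 CPM in proximal cells against 1 UMI in distal cells of each library, had a log2 fold change of 5.66 (SE 1.67, edgeR adjusted p = 0.0651) and did not pass. Osr2 had a log2 fold change of 4.93 (SE 1.67, edgeR adjusted p = 0.112), with a log2 ratio of 3.16 in Drop-seq and at least 5.80 in 10x, where 3 counts stand for the 0 distal UMIs. Pou3f3 had -1.62 (SE 0.64, edgeR adjusted p = 0.167), and Irx3, Lhx1 and Pax8 had fold changes between -0.20 and 0.24. By edgeR, 5 of the 8 had an unadjusted p under 0.05, and DESeq2's Wald test called 4. Without Drop-seq no member passed in edgeR (3 at an unadjusted p under 0.05), without 10x Hnf4a alone did (edgeR adjusted p = 0.0228), and without C1 Tfap2b, Sox9, Hnf4a and Pou3f3 did.

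Among the lists, the genes lower in proximal cells were Tfap2a of the paralogues and Emx1, Grhl2, Hoxd11 and Mecom of the other regulators, and the gene higher in them was Lfng, which modifies Notch receptors. Mecom fell by 4.03 (log2, SE 0.48, edgeR adjusted p = 0.00063), from 310 and 391 CPM in distal to 13.9 and 6.32 CPM in proximal cells of Drop-seq and 10x. Grhl2, an epithelial factor of ducts, fell by 4.84 (SE 1.08, edgeR adjusted p = 0.0106), and Tfap2a, the AP-2 paralogue of Tfap2b, fell by 4.16 (SE 0.88, edgeR adjusted p = 0.0071). In Drop-seq and 10x their log2 ratios were -3.57 and -3.46 for Grhl2, and -3.18 and -3.10 for Tfap2a. Counts under 3 were set to 3 for Grhl2 in both libraries and for Tfap2a in 10x. Emx1 stood at 126 and 113 CPM in distal cells and at most 23.7 CPM in proximal cells. All 6 genes lost their call without Drop-seq, with edgeR adjusted p from 0.0597 for Mecom to 0.614 for Emx1, and all but Mecom also lost it without 10x, with edgeR adjusted p from 0.0563 for Lfng to 0.104 for Emx1. Medians were -0.01 over the 8 genes, -0.61 over the paralogues, 1.17 over the Notch genes, -1.17 over the other regulators and 0.14 over all genes tested.

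Ureteric cells were set against the mean of the log2 levels of renal vesicle, proximal and distal cells to compare the ureteric and nephron lineages. Sox9 was higher and Irx3 lower in ureteric cells, where 4.73% of all genes tested were called, 2.78% higher and 1.95% lower. Sox9 rose by 2.44 on the log2 scale (SE 0.45, edgeR adjusted p = 0.00724), higher in 2 of the 2 libraries that hold all 4 classes. Irx3 fell by 2.27 (SE 0.34, edgeR adjusted p = 0.000317), with log2 ratios of -1.79 in Drop-seq and -3.58 in 10x. Hnf4a (-5.19, SE 2.11, edgeR adjusted p = 0.216) and Osr2 (-3.74, SE 1.57, edgeR adjusted p = 0.237) had large differences with wide errors. Tfap2b had -0.32 in the fit, while its log2 ratios to that mean were 0.06 in Drop-seq and 0.23 in 10x. In Drop-seq it was at 94.1 CPM in ureteric, 181 in renal vesicle, 508 in distal and 6.61 in proximal cells. In 10x the values in the same order were 77.8, 163, 655 and 1.58 CPM. Ureteric cells were thus below renal vesicle and distal cells and above proximal cells in each. Without Drop-seq Irx3 alone passed (edgeR adjusted p = 0.0340), without 10x Irx3 and Hnf4a did (edgeR adjusted p = 0.0330 for both), and without C1 Irx3, Sox9 and Hnf4a did.

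In the lists, Irx1 and Irx2, Iroquois paralogues of Irx3, fell with it. Irx1 fell by 5.78 (log2, SE 1.09, edgeR adjusted p = 0.00728) and Irx2 by 3.69 (SE 0.69, edgeR adjusted p = 0.0033). Sox8, a paralogue of Sox9, rose by 6.55 (SE 1.15, edgeR adjusted p = 0.0017), to 20.2, 24.7 and 3.08 CPM in ureteric cells, and Tfap2a rose as well. Of the Notch genes Dll1 and Lfng fell, and of the other regulators Gata2 and Grhl2 rose while Emx1, Hoxa11 and Tcf21 fell. Gata2 rose by 3.18 (SE 0.81, edgeR adjusted p = 0.0411). In Drop-seq and 10x the log2 ratios were 3.18 and 2.79 for Sox8, and -4.43 and -5.67 for Irx1. They were -3.80 and -4.31 for Irx2, and 3.35 and 4.01 for Gata2. Each of these ratios holds counts under 3 that were set to 3, so the fitted sizes rest partly on few counts. Without Drop-seq the edgeR adjusted p was 0.163 for Irx2, 0.174 for Sox8, 0.201 for Irx1 and 0.430 for Gata2, so none of the 4 passed, and without 10x Irx2 (edgeR adjusted p = 0.0524) and Sox8 (edgeR adjusted p = 0.0903) did not. Medians were -0.89 over the 8 genes, 1.02 over the paralogues, -0.88 over the Notch genes, -1.27 over the other regulators and 0.04 over all genes tested.

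Podocyte-like cells reached 20 cells in Drop-seq only, so they were compared with tubule cells without a test. There the mean of the log2 levels in proximal and distal cells was subtracted from the log2 level in podocyte-like cells. The difference was -3.93 for Pou3f3, -2.42 for Tfap2b, -1.92 for Sox9 and -1.14 for Irx3. It was 0.66 for Lhx1, 0.996 for Pax8 and 0.06 for Osr2, while Hnf4a held 3 UMIs (5.83 CPM) in podocyte-like cells. Tfap2b was at 11.7 CPM in podocyte-like, 6.61 in proximal and 508 in distal cells. In the same order Sox9 was at 11.7, 13.9 and 120 CPM and Osr2 at 33.0, 82.2 and 10.6 CPM. Pou3f3 and Irx3 were lower than in each tubule class, though the Irx3 interval overlapped that of distal cells. In the 17 podocyte-like cells of 10x, Pou3f3, Sox9, Tfap2b and Hnf4a had 0 UMIs, which allows up to 32.3 CPM each, and Lhx1 and Pax8 were at 64.7 and 119 CPM.

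**Figure D5:**
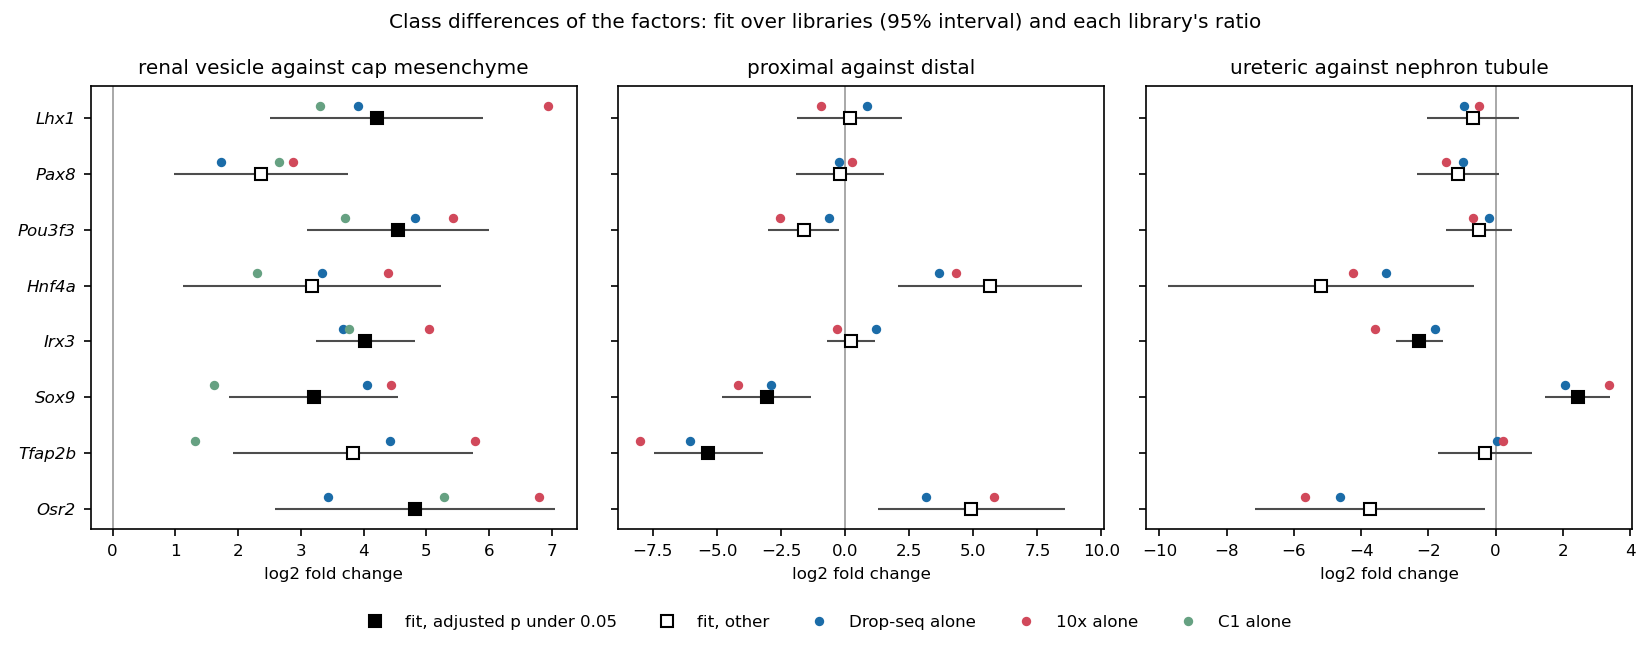
Fitted log2 fold changes of the 8 genes (squares, filled where the adjusted p passed, with 95% intervals) and log2 ratios per library (points, with counts under 3 set to 3) in the 3 tested comparisons; C1 has no point where it lacks distal cells. All 8 genes lie above 0 in renal vesicle against cap mesenchyme, and Tfap2b and Hnf4a lie on opposite sides of 0 in proximal against distal.

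Genes with the pattern most like each member were ranked by Pearson's r over the 24 class sums, each library centred on its own mean, as a description. For Lhx1 they were Jag1 (r = 0.892), Dpysl5 (0.889) and Emx2 (0.874), and for Pax8 Hsd17b14 (0.882), Rnf5 (0.878) and Lsr (0.870). For Pou3f3 they were Emx2 (0.963), Grb7 (0.947) and 0610040J01Rik (0.943), and for Hnf4a Tmem169 (0.921), Palm (0.920) and the paralogue Hnf4g (0.907). For Irx3 they were its neighbour in the Iroquois family Irx5 (0.832), Uqcrq (0.799) and Arhgap27 (0.757), and for Sox9 Capn5 (0.876), Tfap2a (0.874) and Cdh3 (0.852). For Tfap2b they were Vstm5 (0.921), Prdm16 (0.866) and Grhl2 (0.853), and those for Osr2 included Slc30a3 (0.925) and Xylb (0.889). Among the members themselves, Lhx1 and Pax8 (0.896) and Hnf4a and Osr2 (0.895) were most alike, and r was 0.803 for Pou3f3 and Tfap2b, 0.784 for Sox9 and Tfap2b and 0.00617 for Tfap2b and Osr2. Class sums of a library share its depth and platform.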

How the data were processed

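Single-cell RNA was counted in 3 libraries of wild-type embryonic kidney, 1 each by Drop-seq, 10x Chromium and Fluidigm C1. The authors deposited whole-number counts per gene and cell (UMI counts for Drop-seq and 10x, read counts for C1), and these were used. The submitters' processing notes list the mm10 build, with Bowtie2 2.2.7 beside the Drop-seq and C1 samples and Cell Ranger 1.3.0 beside 10x, and no source used here names the counting tool of Drop-seq and C1 or its use of strand. All 3 samples carry the same Drop-seq preparation text, which reads the 3′ end of transcripts, so the other protocols are unknown here.

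Cells with 500 or more genes and at most 20% mitochondrial counts were kept. Scrublet called 5 Drop-seq doublets (0.255%, taken as a failed run, none removed), 17 in 10x and 11 in C1, which were removed. Total counts per library were 17751487, 17465306 and 171283962 in kept cells. Each library was clustered in scanpy 1.11.5 (Python 3.11.15, leidenalg 0.10.2, 2000 variable genes, 30 components, 15 neighbours, Leiden resolution 1), in 2 rounds, the second on nephron lineage cells. A cluster took a class when 3 or more of its markers were above the rest and its top 10 genes, ranked by fold after adding 5 CPM, did not favour another class. The 5 CPM was set after clusters had been seen, and 5 names depend on it (Drop-seq clusters of 137, 104 and 61 cells, called renal vesicle, cap mesenchyme and podocyte-like, and 2 clusters of 10x, 1 of them the proximal one of 24 cells).

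Counts were summed per library and class of 20 or more cells, giving 24 sums of 10 classes over 17864 shared symbols, and fitted in edgeR 4.0.16 (R 4.3.3; TMM, filterByExpr, robust quasi-likelihood test), with a term for library and 12 residual degrees of freedom. Two-sided p-values were adjusted (Benjamini-Hochberg) over the 8207 genes that took no part in clustering or naming, and the threshold was 0.05. The classes share 1 estimate of the spread. Log2 ratios per library are of CPM, with counts under 3 set to 3. Where a class was set against several others, their log2 levels were averaged. Named list genes are those past the threshold in the same direction in every library, up to 6 a comparison by size. On simulated sums for renal vesicle against cap mesenchyme the fit recovered 77.9% of 86 genes changed by a log2 of 1.5 and 90.4% of 114 changed by 3, and called 12 of 7884 unchanged genes. Alternatives were other scalings, filters, resolutions, DESeq2 1.42.0, leaving out each library, and, chosen after seeing the data, leaving out the neural class. Gene positions are from GENCODE vM21. The members and lists were chosen with earlier results of these data known. Some genes of the lists and rankings are not reported here.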

Additional observations from a re-analysis of the deposited data

Results flagged for a closer look

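Proximal against distal, 3 genes had log2 ratios of opposite sign in the 2 libraries that hold both classes. Irx3 was at 1.18 in Drop-seq and -0.32 in 10x, Lhx1 at 0.87 and -0.93, and Pax8 at -0.25 and 0.26. The difference between the libraries was not tested, since each platform has 1 library.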

How the results depend on the processing

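In renal vesicle against cap mesenchyme, proximal against distal and ureteric against tubule, 105, 467 and 388 genes were called, and 5, 2 and 2 of the 8 members. Leaving out 1 library at a time gave 1 to 319, 94 to 608 and 24 to 616 genes, and 1 to 7, 0 to 4 and 1 to 3 members. Without the library term the counts were 8, 1 and 13 genes and 2, 0 and 0 members, though 8, 5 and 4 members had an unadjusted p under 0.05 by edgeR. At resolution 0.6, where renal vesicle was found in 2 libraries, they were 27, 25 and 191 genes and 0, 0 and 1 members (8, 5 and 4 unadjusted), and at resolution 1.6 they were 64 and 162 genes in the first 2 comparisons and 4 ureteric members. C1 name groups as separate sums gave 60 genes for renal vesicle and 1 ureteric member, no filter on low counts gave 1 member for proximal against distal, and cells with 1000 or more genes gave 284 genes there. DESeq2's Wald test gave 181 genes for renal vesicle and 4 members each for proximal and ureteric cells. With the neural class left out, Hnf4a passed for renal vesicle (log2 3.39, edgeR adjusted p = 0.0200) and proximal cells (5.52, edgeR adjusted p = 0.0126), and Sox9 no longer passed for proximal cells (edgeR adjusted p = 0.0530); the 10x neural cluster held endothelial markers at 2085 CPM.

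Of the members' values under 12 alternatives, 71, 68 and 80 of 96 in each comparison kept their direction and side of the threshold. Direction changed for Lhx1 in proximal against distal without Drop-seq (-0.66), at resolutions 0.6 (-1.32) and 1.6 (-1.21), with 1000 or more genes (-0.23) and in DESeq2 (-0.10). It changed for Irx3 there without Drop-seq (-0.38), without the library term (-0.16) and at resolutions 0.6 (-0.27) and 1.6 (-0.089), and for Pax8 without C1 (0.11). Tfap2b in ureteric cells changed without C1 (0.14) and at resolution 1.6 (0.033). Over the 3 fits that each left out 1 library these values ran from -0.66 to 0.50 for Lhx1, -0.38 to 1.03 for Irx3, -0.44 to 0.11 for Pax8 and -0.39 to 0.14 for Tfap2b. The cause was not tested. The class with the highest level and that with the highest share were the same in 19 of 24 cases, also in thinned cells. Pairs below the product in all 3 libraries were 7, against 8 in thinned cells and 6 with 10 or more reads in C1; pairs above it were 13, 8 and 12. No paired analysis was possible because each platform gave 1 library, and the library term already joins its classes. The podocyte comparison had no test or alternatives because 1 library held 20 or more such cells. Depth limits the classes with few counts most: 0 UMIs allow up to 32.3 CPM in 10x podocyte-like cells.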

Other observations

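In 10x, endothelium formed 2 clusters that differed in Irx3. It was at 179 CPM (163 to 197) in 223 cells led by Aplnr, Gchfr and Plvap, and found in 72.6% of them. In 145 cells led by Esm1, Gpihbp1, Fabp4, Sox17 and Gja4, it was at 27.99 CPM (19.4 to 39.1) and found in 13.1%. Its paralogue Irx5 was likewise higher in endothelium than in renal vesicle, at 16.3 against 2.36 CPM in Drop-seq, 24.1 against 3.58 in 10x and 14.1 against 3.84 in C1.

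A 10x cluster of 62 cells took no name, since its markers were those of renal vesicle but its top genes, among them Pcp4 and Wt1, were shared with the podocyte-like cluster. Pax8 was at 343 CPM there (294 to 398) and found in 83.9% of its cells, above the 157 CPM of 10x renal vesicle cells. Osr2 was at 207 CPM and Lhx1 at 162 CPM. Pou3f3 had 0 UMIs, which allows up to 5.91 CPM, and Sox9, Tfap2b and Hnf4a had 1, 2 and 3 UMIs. No test was made, as the cluster is part of 1 library.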
